A study of Mus musculus with 85 samples.

Results

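Described here are 10 genes of the mouse hippocampus whose level differed between a methionine-restricted and a standard feed: Tnfrsf25, Zglp1, Tbc1d2, Tmem194b, Gzmm, Fam46a, Noxred1, Nadsyn1, Lcmt2 and Lyl1. They are 10 of 53895 rows in a table of gene expression, of which 21300 passed a filter on low values, and all 10 passed it. The feed difference itself chose them. Of the 10, 7 passed an adjusted p of 0.05 for feed averaged over sex and genotype, where 0.141% of all tested rows did, and 6 passed it between control females on the restricted and the standard feed, where 0.0704% did. Every gene passed at least 1 of these comparisons and 3 passed both, so feed values are given as a description and no test of feed is reported for them.

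RNA was measured in the hippocampus of 85 mice aged 8 months, with 1 library per mouse. The AD groups are of a transgenic strain, known for amyloid plaques and for an App transgene that is driven by the Prnp promoter, which is active in many tissues. Control groups are C57BL/6J mice. Among AD males, 11 ate the restricted feed (MADMR) and 11 the standard feed (MAD), and among control males 10 (MWTMR) and 11 (MWT). Among AD females, 11 ate the restricted feed (FADMR) and 11 the standard feed (FAD), and among control females 10 (FWTMR) and 10 (FWT). The labels record neither litter, cage nor batch, so p-values measure the spread between these mice. Values are FPKM (fragments scaled to the length of the transcript and the size of the library), and the depth of each library is unknown.

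Methionine is an essential amino acid that carries sulfur. Cells turn it into S-adenosylmethionine, the donor of methyl groups for DNA, RNA, protein and lipid, and into cysteine and glutathione. Feeds low in methionine are known to change lipid and energy metabolism in rodents, and a lack of amino acids is sensed through the transcription factor ATF4. None of the 10 genes encodes an enzyme of the methionine cycle itself. Lcmt2 is the closest to it, as an enzyme that takes methyl groups from S-adenosylmethionine to finish the modified base wybutosine in a transfer RNA.

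All 10 genes code for proteins, and each was 1 row of the table with no other gene joined to it. On GRCm38.p6, RefSeq places Tnfrsf25 at chr4:152115528-152120119, Tmem194b at chr1:52568535-52651919, Gzmm at chr10:79689020-79695261 and Lyl1 at chr8:84701423-84704716 on the plus strand. It places Zglp1 at chr9:21062393-21067093, Tbc1d2 at chr4:46604390-46650340, Fam46a at chr9:85320439-85327150, Noxred1 at chr12:87221123-87238601, Nadsyn1 at chr7:143795589-143822862 and Lcmt2 at chr2:121137292-121140698 on the minus strand.

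The sequences before the start sites of 4 of the genes are shown because Zglp1, Noxred1 and Tnfrsf25 varied together between mice and Tmem194b varied against them. They are the 250 bases before a start site in RefSeq's promoter table on the build GRCm38.p6, in the direction of the gene, with motif matches in capitals. For Zglp1 and Noxred1 that start is the first base of the RefSeq gene, while for Tnfrsf25 it lies 406 bases and for Tmem194b 62170 bases inside the gene, so that the sequence before the outermost start of these genes is not shown. Zglp1 (chr9:21067094-21067343, minus strand) holds the E-box CACGTG, the E-box CAGATG bound by TAL1 and LYL1 type factors, and GGGCGG, the SP1 motif, 3 times. Noxred1 (chr12:87238602-87238851, minus strand) holds TGATGNAA, the composite motif of ATF4 and C/EBP, and CAGATG. Tmem194b (chr1:52630455-52630704, plus strand) holds GGGCGG on each strand, and Tnfrsf25 (chr4:152115684-152115933, plus strand) holds none of the motifs in this window.
Zglp1: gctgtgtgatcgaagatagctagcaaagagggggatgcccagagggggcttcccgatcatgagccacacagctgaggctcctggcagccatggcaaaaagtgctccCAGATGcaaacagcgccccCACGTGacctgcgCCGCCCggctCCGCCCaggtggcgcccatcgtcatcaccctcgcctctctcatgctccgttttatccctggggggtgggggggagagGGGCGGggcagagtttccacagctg
Noxred1: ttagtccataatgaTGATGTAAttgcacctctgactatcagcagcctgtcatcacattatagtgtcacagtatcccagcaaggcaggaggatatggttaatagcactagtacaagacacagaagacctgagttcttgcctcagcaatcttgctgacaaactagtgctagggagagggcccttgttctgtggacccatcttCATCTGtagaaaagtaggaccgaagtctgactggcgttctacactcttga
Tmem194b: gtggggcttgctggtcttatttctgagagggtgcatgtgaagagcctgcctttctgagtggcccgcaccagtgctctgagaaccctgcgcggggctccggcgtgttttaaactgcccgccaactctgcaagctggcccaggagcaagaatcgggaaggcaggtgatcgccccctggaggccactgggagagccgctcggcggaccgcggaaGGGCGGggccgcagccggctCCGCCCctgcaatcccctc
Tnfrsf25: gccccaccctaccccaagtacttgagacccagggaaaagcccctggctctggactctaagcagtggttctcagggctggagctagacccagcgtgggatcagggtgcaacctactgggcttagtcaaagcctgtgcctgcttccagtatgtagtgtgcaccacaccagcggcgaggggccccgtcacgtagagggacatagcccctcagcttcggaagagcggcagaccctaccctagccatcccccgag

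All 10 genes had at least 1 promoter in the RefSeq table, 13 promoters in all, searched over 300 bases (250 before and 50 after the start) on both strands. TGATGNAA was in 1 of the 10 genes, Noxred1, and in 3.97% of 32851 promoters. CACGTG was in 2 genes, Zglp1 and Gzmm, and in 7.15% of all promoters. CAGATG was in 2 genes (17.2% of all promoters), AGATAA, the GATA motif, in 1 gene (11.2%), GGGCGG in 6 genes (35.7%) and TGACGTCA, the CREB motif, in 0 genes (1.79%). TGATGNAA and CAGATG share the letters GATG, and CACGTG and TGACGTCA share ACGT, so matches could overlap, but none did in the sequences shown. A match describes the letters only.

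In mice on restricted feed, Tnfrsf25, Zglp1, Tbc1d2, Fam46a, Noxred1 and Nadsyn1 were lower and Tmem194b, Gzmm, Lcmt2 and Lyl1 were higher, averaged over sex and genotype. The widest difference was that of Tnfrsf25, at -0.58 ± 0.11 on the log2 scale (difference of log2(scaled FPKM + 1), ± SE), followed by Noxred1 at -0.32 ± 0.07. Tmem194b (0.20 ± 0.03), Zglp1 (-0.20 ± 0.05), Tbc1d2 (-0.19 ± 0.04), Fam46a (-0.19 ± 0.04) and Gzmm (0.15 ± 0.03) came next. Lcmt2 (0.11 ± 0.04), Lyl1 (0.05 ± 0.04) and Nadsyn1 (-0.05 ± 0.02) passed the threshold between control females but not on average. The median over all tested rows was -0.004. With low FPKM this scale understates the change, and Zglp1 reached 1 FPKM in 52 of 85 libraries.

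**Figure D1:**
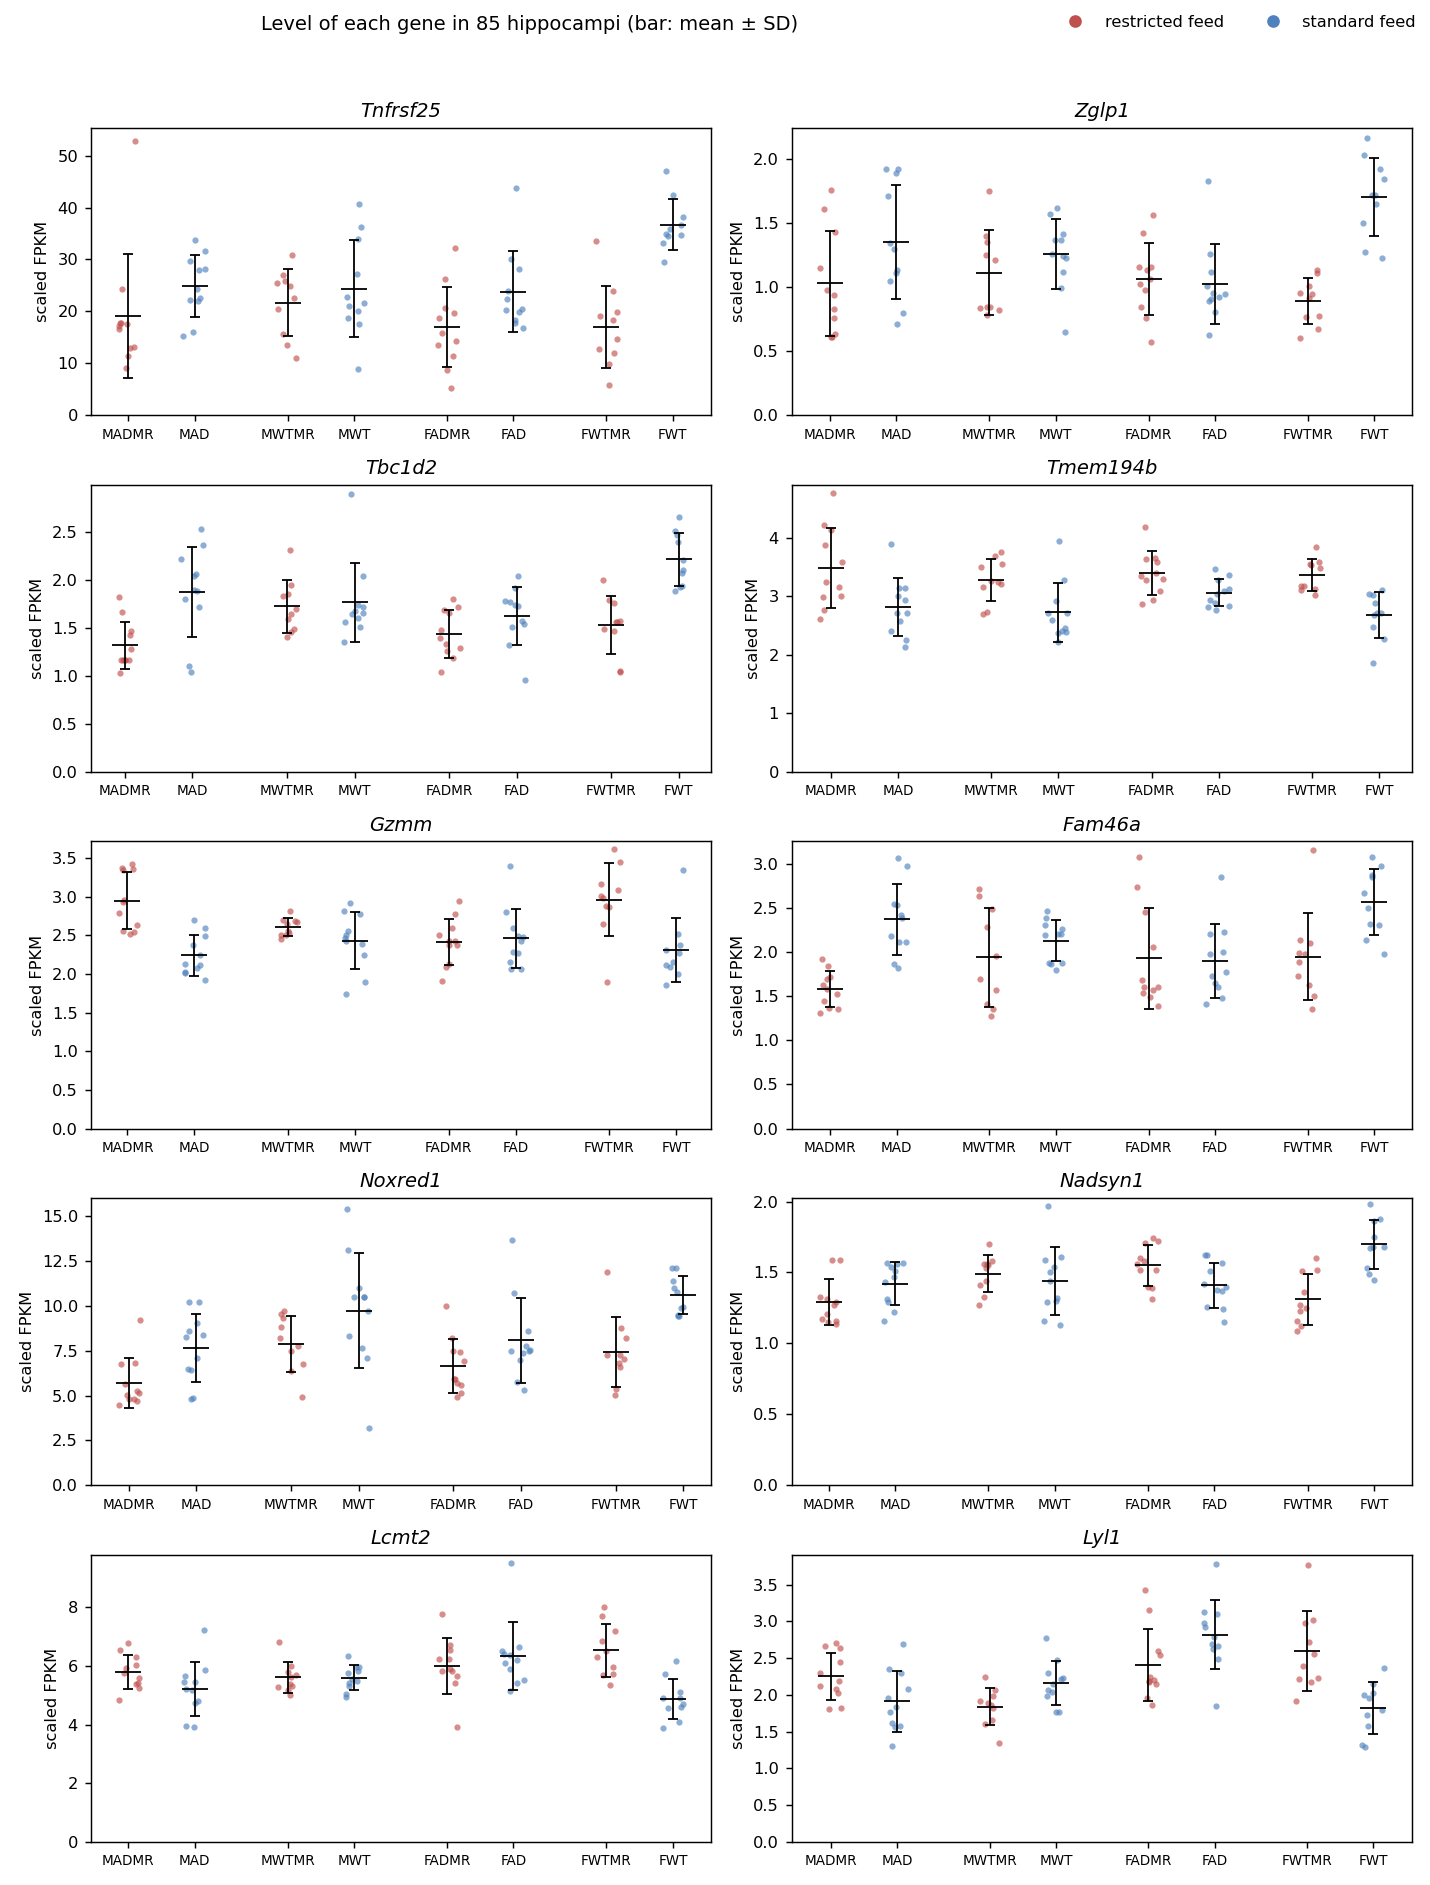
Scaled FPKM of the 10 genes (y axis, linear from 0) in the 8 groups (x axis), 1 point per mouse, with mean ± SD; red marks restricted and blue standard feed. Control females on standard feed (FWT) have the highest mean of 6 genes and the lowest of 3.

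Tnfrsf25 and Gzmm are best known from immune cells. Tnfrsf25 encodes death receptor 3, a receptor of the tumour necrosis factor family best known on T cells, and had the highest level of the 10 genes, at a mean of 23.0 FPKM. In AD mice it was at 18.1 ± 9.87 FPKM on restricted feed and 24.3 ± 6.83 on standard feed (SD, n = 22 each), and in control mice at 19.4 ± 7.40 on restricted feed (n = 20) and 30.3 ± 9.66 on standard feed (n = 21). FWTMR mice ran from 5.90 over a median of 16.5 to 33.6 FPKM, and FWT mice from 29.6 over 35.4 to 47.0. Of the 10 FWTMR mice, 9 lay below every FWT mouse.

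In the other pairs the ranges of Tnfrsf25 overlapped further. MADMR mice ran from 9 over 17.2 to 52.9 FPKM, and MAD mice from 15.2 over 24.4 to 33.8; the top value belonged to 1 restricted mouse (replicate 3). FADMR mice ran from 5.23 over 15.8 to 32.2, and FAD mice from 16.8 over 20.5 to 43.7. In control males the median was higher on restricted feed, at 23.6 FPKM in MWTMR mice (11.1 to 30.9) and 21.7 in MWT mice (8.98 to 40.6), although the mean was lower. Over the 4 pairs, 32 of 42 restricted mice were below the median of the standard-feed mice of their sex and genotype.

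Gzmm encodes granzyme M, a serine protease in the granules of natural killer cells. It was at 2.68 ± 0.426 FPKM in restricted and 2.35 ± 0.339 in standard-feed AD mice, and at 2.78 ± 0.378 in restricted and 2.37 ± 0.383 in standard-feed control mice (SD). MADMR mice ran from 2.52 over 2.93 to 3.42 FPKM, and MAD mice from 1.92 over 2.13 to 2.70. FWTMR mice ran from 1.89 over 2.99 to 3.62, and FWT mice from 1.86 over 2.22 to 3.34. In AD females the medians were 2.42 in FADMR and 2.43 in FAD mice, so that the pair showed a difference of -0.02 ± 0.06 (log2). Other genes of cytotoxic cells and lymphocytes were low: 4 of 22 passed the filter, none was at 0 in every library, and their summed level ran from 3.66 to 11.2 FPKM in restricted and from 2.57 to 9.40 in standard-feed mice. Btla, an inhibitory receptor of lymphocytes, was at 2.56 ± 0.798 FPKM in 42 restricted and 1.87 ± 0.802 in 43 standard-feed mice (SD) and rose by 0.32 ± 0.08 (log2, limma, adjusted p = 0.0433), with 32 of 42 restricted mice above the standard-feed median. It was the 1 call among these 4 genes, against 0.141% of all tested rows. Whether the call of Btla holds under other processing was not examined. In whole tissue, more cells of a type and more RNA per cell cannot be told apart. The part of lymphocytes in the difference of Gzmm was not tested.

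Zglp1 and Lyl1 are transcription factors. Zglp1, a GATA-like zinc finger protein, is known in mice for starting the oocyte programme in germ cells. Its FWTMR and FWT mice did not overlap. FWTMR mice ran from 0.599 over 0.932 to 1.13 FPKM and FWT mice from 1.23 over 1.72 to 2.16. This pair was among the comparisons that chose Zglp1. Here and for the other genes, the share of all tested rows with such a separation was not counted. In AD females the order was turned, with a median of 1.06 in FADMR and 0.943 in FAD mice. Zglp1 differed by -0.09 ± 0.07 in AD mice and -0.31 ± 0.07 in control mice (log2). It overlaps the predicted gene Gm49373 on the same strand, and reads of the pair cannot be told apart.

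Lyl1 encodes a helix-loop-helix factor of blood cell progenitors that pairs with GATA proteins. It was highest in AD females on standard feed, at a mean of 2.41 ± 0.489 FPKM in FADMR and 2.82 ± 0.476 in FAD mice (SD, n = 11 each). In control females the order was reversed, at 2.60 ± 0.546 in FWTMR and 1.82 ± 0.349 in FWT mice (n = 10 each). Its averaged feed difference, 0.05 ± 0.04, averages differences of opposite sign: 0.35 ± 0.08 in control females, 0.17 ± 0.08 in AD males, -0.15 ± 0.08 in control males and -0.17 ± 0.08 in AD females. No p is given for the difference between these pairs, because they chose the gene. Of 7 erythroid genes 3 passed the filter and none was at 0 in every library. In females their summed level had a median of 69.5 FPKM in FWTMR mice (45 to 92) and 46.6 in FWT mice (29.0 to 107.3), and of 67.2 in FADMR mice (50.1 to 103.5) and 50.4 in FAD mice (35.3 to 81.4). In males the medians were close, at 36.7 in MADMR (25.7 to 54.6) and 37.5 in MAD mice (25.1 to 51.9), and at 41 in MWTMR (15 to 52) and 42.1 in MWT mice (17 to 86.4). The part of blood cells in the difference of Lyl1 was not tested.

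Fam46a and Lcmt2 act on RNA. Fam46a, called Tent5a in current annotation, encodes a poly(A) polymerase that lengthens the tails of messenger RNAs in bone-forming cells. MADMR mice were at 1.31 to 1.92 FPKM with a median of 1.58, and MAD mice at 1.82 to 3.07 with a median of 2.39, so that 9 of 11 restricted mice were below every standard-feed mouse. The averaged difference was -0.19 ± 0.06 in AD and -0.20 ± 0.06 in control mice, and 0.00 ± 0.08 in AD females alone. Lcmt2 averaged 6.53 ± 0.896 FPKM in FWTMR and 4.87 ± 0.686 in FWT mice (SD, n = 10 each), the highest and the lowest of its 8 group means. In control males it was at 5.61 ± 0.522 in MWTMR and 5.60 ± 0.420 in MWT mice, and its log2 difference was 0.00 ± 0.07.

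Nadsyn1 and Noxred1 are tied to NAD and NADP, carriers of electrons. Nadsyn1 makes NAD from its acid precursor with glutamine as the nitrogen donor, and Noxred1 encodes a protein with an NADP-dependent oxidoreductase domain. Noxred1 was lower on restricted feed in all 4 pairs, with differences of -0.36 ± 0.14 in AD males, -0.22 ± 0.14 in control males, -0.23 ± 0.14 in AD females and -0.48 ± 0.14 in control females (log2). MADMR mice ran from 4.49 over 5.12 to 9.24 FPKM and MAD mice from 4.82 over 8.24 to 10.2. FWTMR mice ran from 5.02 over 7.13 to 11.9 and FWT mice from 9.42 over 10.4 to 12.1, and 9 of 10 FWTMR mice were below every FWT mouse. Over all pairs 38 of 42 restricted mice were below the median of their standard-feed pair. Nadsyn1 was lower in control females, at 1.31 ± 0.179 FPKM in FWTMR and 1.70 ± 0.173 in FWT mice, and higher in AD females, at 1.55 ± 0.143 in FADMR and 1.41 ± 0.157 in FAD mice (SD). In AD mice of both sexes together it was at 1.42 ± 0.199 on restricted and 1.42 ± 0.151 on standard feed.

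Tmem194b and Tbc1d2 belong to membranes. Tmem194b, called Nemp2 in current annotation, encodes an inner nuclear membrane protein. It was higher on restricted feed in all 4 pairs, by 0.23 ± 0.07 in AD males, 0.20 ± 0.07 in control males, 0.11 ± 0.07 in AD females and 0.25 ± 0.07 in control females (log2). FWTMR mice ran from 3.02 over 3.34 to 3.84 FPKM, and FWT mice from 1.86 over 2.72 to 3.11. MADMR mice ran from 2.62 over 3.25 to 4.76, and MAD mice from 2.13 over 2.72 to 3.90. Of 42 restricted mice, 39 were above the median of their standard-feed pair, the most of any of the 10 genes. Tbc1d2, an activator of the hydrolysis of GTP by the late-endosome protein Rab7, was at 1.38 ± 0.248 FPKM in restricted and 1.75 ± 0.405 in standard-feed AD mice, and at 1.63 ± 0.299 in restricted and 1.98 ± 0.417 in standard-feed control mice (SD). FWTMR mice ran from 1.04 over 1.56 to 2 and FWT mice from 1.89 over 2.16 to 2.66, whereas the median was 1.68 in MWTMR and 1.66 in MWT mice.

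**Figure D2:**
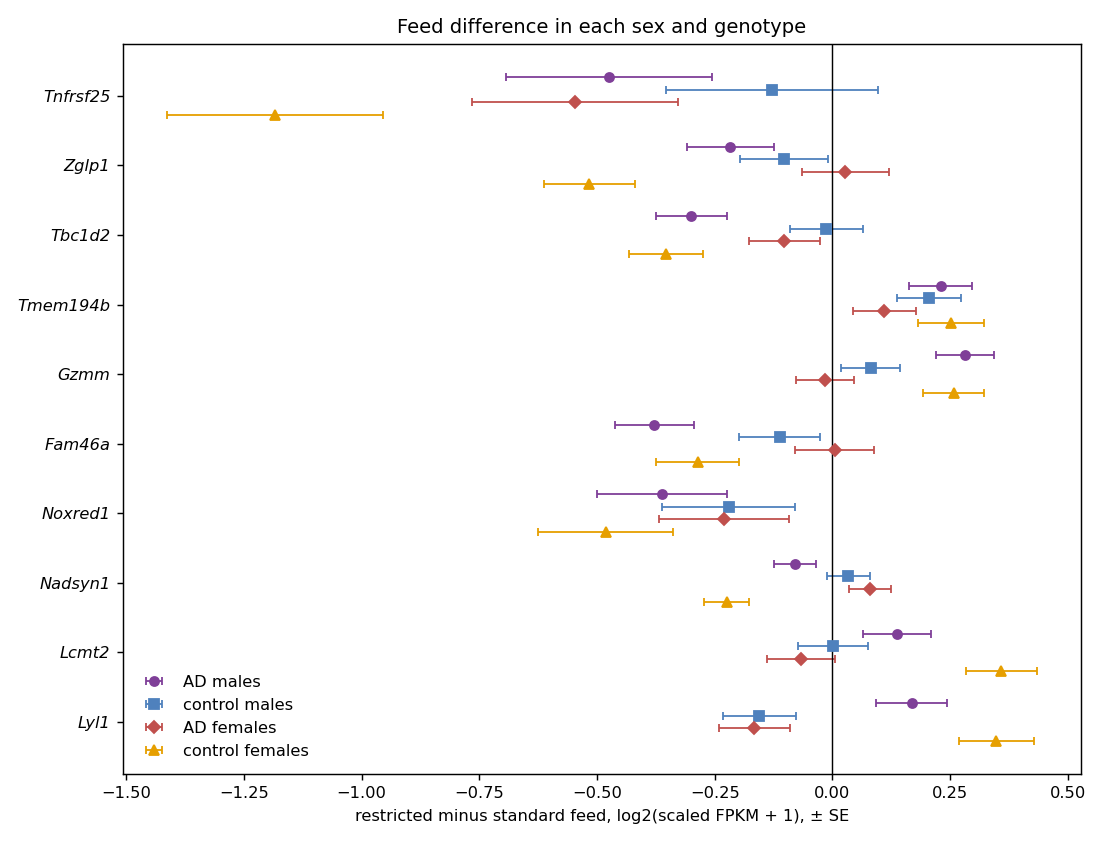
Difference of restricted minus standard feed (x axis, log2(scaled FPKM + 1), ± SE) for each of 10 genes (y axis) in AD males, control males, AD females and control females. For 8 genes the control females lie farthest from 0; Fam46a and Gzmm are farthest in AD males.

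The pair of FWTMR and FWT mice had the largest absolute difference in 8 of 10 genes, and 6 of the 10 were chosen on this pair, so that a wide difference there was set by the choice. Over all tested rows the median absolute difference of this pair was 0.089, against 0.085 in AD males, 0.087 in control males and 0.08 in AD females (log2). FWT mice had the highest group mean for Tnfrsf25, Zglp1, Tbc1d2, Fam46a, Noxred1 and Nadsyn1 and the lowest for Tmem194b, Lcmt2 and Lyl1. Averaged over the other 3 pairs, an alternative chosen after seeing the data, Tnfrsf25 differed by -0.38 and Noxred1 by -0.27, while Tmem194b differed by 0.18, Fam46a by -0.16, Tbc1d2 by -0.14, Gzmm by 0.12 and Zglp1 by -0.10 (log2). Lyl1 (-0.05), Lcmt2 (0.02) and Nadsyn1 (0.01) were then near 0. Across all genes 11 were called in these 3 pairs. In 4 genes (Tnfrsf25, Tbc1d2, Tmem194b and Noxred1) the sign was the same in all 4 pairs; in 4 it was the same in 3 pairs, and in Nadsyn1 and Lyl1 in 2. In AD and control mice the sign was the same for 9 of 10 genes, Nadsyn1 being the other, and the difference was wider in control mice for 9. These counts and group orders describe genes chosen on feed and support nothing about control females or about stability.

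Genotype was tested, since the average over both feeds was not used in the choice. Noxred1 fell in AD mice by 0.30 on the log2 scale (SE 0.07; limma, adjusted p = 0.00727 over all tested rows), and averaged 7.02 ± 2 FPKM in 44 AD mice and 8.92 ± 2.43 in 41 control mice (SD). Of 44 AD mice, 37 were below the median of the control mice of their sex and feed. AD mice ran from 4.49 over 6.86 to 13.7 and control mice from 3.17 over 9.31 to 15.4, so the groups overlap. This was 1 of 10 genes, against 1.74% of all tested rows. Tbc1d2 missed the threshold at -0.13 ± 0.04 (adjusted p = 0.0523) and passed it with FPKM as deposited (adjusted p = 0.0418), with an equal total per library (0.0494) and with library weights (0.0164). The remaining 8 genes had adjusted p of 0.153 to 0.792, including Lyl1 at 0.11 ± 0.04 (0.153) and Fam46a at -0.10 ± 0.04 (0.283). Noxred1 and, without a call, Tbc1d2 were lower both in AD mice and on restricted feed. So were Tnfrsf25 (-0.21 for AD minus control), Zglp1 (-0.08), Fam46a (-0.10) and Nadsyn1 (-0.04), also without a call for genotype. AD males on restricted feed (MADMR) had the lowest mean of Noxred1, Tbc1d2, Fam46a and Nadsyn1. The lowest mean was that of FADMR mice for Tnfrsf25 and of FWTMR mice for Zglp1.

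Sex was tested likewise. Lyl1 rose in females by 0.15 ± 0.04 (log2, limma, adjusted p = 0.000627), at 2.42 ± 0.587 FPKM in 42 females and 2.04 ± 0.359 in 43 males (SD). Of 42 females, 29 were above the median of the males of their genotype and feed. The difference was not the same in all groups. Mean FPKM was 2.82 in FAD and 1.91 in MAD mice, and 2.60 in FWTMR and 1.84 in MWTMR mice. It was close in FADMR (2.41) and MADMR mice (2.25), and lower in FWT (1.82) than in MWT mice (2.16). The call of Lyl1 was 1 among 10 genes, against 50.5% of all tested rows. Group means of the number of rows at 1 FPKM ran from 19008 to 19335 in females and from 18376 to 18770 in males. The labels record no batch, so whether male and female libraries were handled together is unknown. The part of handling in the sex differences was not tested. Nadsyn1 (0.05 ± 0.02, adjusted p = 0.0891) and Lcmt2 (0.07 ± 0.04, adjusted p = 0.106) missed the threshold and passed it with FPKM as deposited (0.00381 and 0.0123), where the median of all genes was 0.050 in place of 0.009. The other 7 genes differed between the sexes by -0.01 to 0.09 (log2), of which Zglp1 and Gzmm, at -0.01 each, were above 0 with FPKM as deposited and with an equal total per library.

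**Figure D3:**
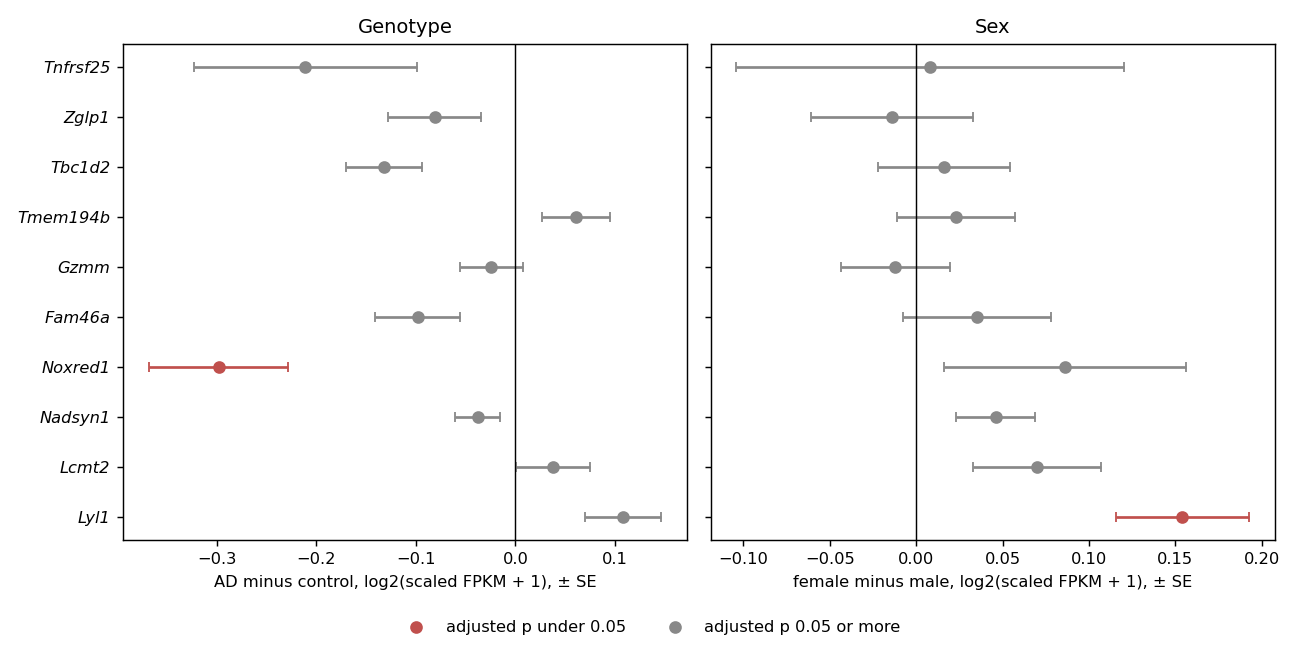
Difference of AD minus control mice (left) and of females minus males (right) on the log2(scaled FPKM + 1) scale (x axes, ± SE) for 10 genes (y axis), with calls in red. Noxred1 at -0.30 and Lyl1 at 0.15 are the calls.

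Some of the 10 genes also varied together between mice of the same group, a measure that does not use the feed difference. Lyl1 was in no pair called by Pearson r. After the group mean was subtracted, 16 of 45 pairs of genes were correlated over 85 mice (permutation within groups, Benjamini-Hochberg over 45 pairs), 9 positively and 7 negatively. With an equal total per library 10 pairs were called positive and 4 negative. With the values scaled as reported, all 9 positive pairs joined genes with the same sign of feed difference (21 pairs). All 7 negative pairs joined genes with opposite signs (24 pairs). These signs come from the same mice, and the feed difference chose the genes. Genes that vary together between mice also share deviations of their group means. The match of signs is therefore no independent support for a joint response to feed. Zglp1 and Noxred1 had a Pearson r of 0.47 (permutation p = 2e-05, adjusted p = 0.00045; Spearman rho 0.37, permutation p = 0.00079), and 0.39 without the 2 mice farthest from the median. Zglp1 and Tnfrsf25 had an r of 0.46 (permutation p = 4e-05, adjusted p = 0.0006; rho 0.43, permutation p = 0.0001), and 0.45 without the 2 mice. Tbc1d2 and Lcmt2, of opposite feed sign, had an r of -0.48 (permutation p = 2e-05, adjusted p = 0.00045; rho -0.40, permutation p = 0.00033), and -0.47 without the 2 mice. By Spearman rho 15 pairs were called: Tbc1d2 with Gzmm and Noxred1 with Nadsyn1 then missed the threshold, and Tbc1d2 with Lyl1 (rho -0.27) passed it. The smallest p that these permutations can give is 1e-05.

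Within single groups of 10 or 11 mice the correlations varied widely. Zglp1 and Noxred1 kept their sign in 8 of 8 groups (r from 0.04 to 0.81), as did Zglp1 and Lcmt2 (from -0.69 to -0.14) and Fam46a and Noxred1 (from 0.03 to 0.50). Tnfrsf25 and Noxred1 (pooled r 0.40) had the pooled sign in 5 groups, and the lowest group r was -0.43. In all, 11 of the 16 pairs had their sign in at least 7 groups. Correlation of this size was common in these libraries: the share of all tested rows with an absolute r of at least 0.27 ran from 2.89% for Nadsyn1 to 41.9% for Noxred1, with a median of 15.7% over the 10 genes, beside 35.6% of the 45 pairs.

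**Figure D4:**
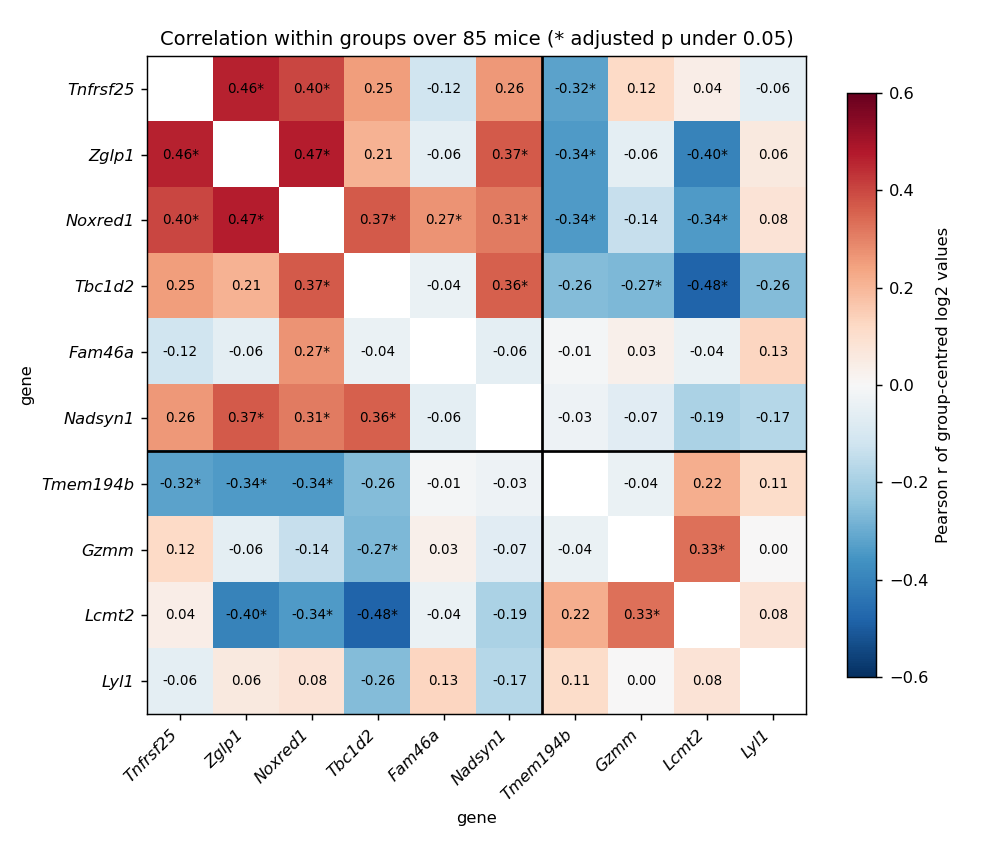
Pearson r of group-centred log2 values over 85 mice for each pair of 10 genes (both axes), with called pairs starred; lines separate 6 genes lower from 4 genes higher on restricted feed. Called pairs within a block are positive and called pairs between blocks negative.

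Properties of the libraries were correlated with some of these genes within groups. Of 60 relations of the 10 genes with 6 library measures, 7 passed an adjusted p of 0.05 (permutation within groups). Noxred1 went with how many rows reached 1 FPKM (r = 0.39, adjusted p = 0.0102; rho 0.32, permutation p = 0.00439) and with the mitochondrial share (r = 0.37, adjusted p = 0.0102; rho 0.38, permutation p = 0.00061). Lcmt2 went against the number of rows (r = -0.31, adjusted p = 0.0447; rho -0.25, permutation p = 0.0255) and the mitochondrial share (r = -0.35, adjusted p = 0.0257; rho -0.21, permutation p = 0.0611). Zglp1 went against the lists of striatum (r = -0.32, adjusted p = 0.0251; rho -0.31, permutation p = 0.00528) and thalamus genes (r = -0.34, adjusted p = 0.0251; rho -0.32, permutation p = 0.00312). Fam46a went with meningeal genes (r = 0.36, adjusted p = 0.0251; rho 0.27, permutation p = 0.0156), with an r of 0.24 without the 2 mice farthest from the median. The median feed difference was 0.101 over the thalamus genes, 0.072 over the striatum genes and 0.086 over the meningeal genes (log2), beside -0.004 over all tested rows. The mitochondrial share had a median of 12.05% in restricted and 13.1% in standard-feed mice. With the levels of choroid plexus, striatum, thalamus and meningeal genes as covariates, 14 pairs were called and Noxred1 still passed for genotype. The number of rows at 1 FPKM and the mitochondrial share, which went with Noxred1, were not among these covariates.

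The genes most like each of the 10 over 85 mice, among 10350 single genes with a mean of at least 1 FPKM, did not include another of the 10. Tnfrsf25 was most like Noc2l (r = 0.77) and Rnf112 (0.75), Zglp1 like Abca1 (-0.61) and Tsr3 (0.61), Tbc1d2 like Apc2 (0.55) and Ankrd13b (0.54), and Tmem194b like Sstr3 (-0.57) and Oacyl (0.52). Gzmm was most like Phb2 (0.55) and Trim28 (0.53), Fam46a like Mmp14 (0.56) and Pnn (-0.54), Noxred1 like Eif4b (-0.66) and Eci2 (-0.65), and Nadsyn1 like Prss53 (0.53) and Tekt2 (0.50). Lcmt2 was most like Ahcy (0.55), the enzyme that clears S-adenosylhomocysteine in the methionine cycle, and Nsmce4a (0.55), and Lyl1 like Rps15 and Vav1 (0.58 each). Without the 2 mice farthest from the median, the r of Lcmt2 was 0.44 with Ahcy and 0.41 with Nsmce4a. Spearman rho over all mice was 0.41 and 0.45. None of these 20 genes was called for feed, against 0.141% of all tested rows. At that share, a set of 20 genes would rarely hold a call. Noc2l, for example, differed by -0.02 ± 0.03 and Ahcy by -0.01 ± 0.03, with adjusted p of 0.943 and 0.972 (limma), and Oacyl came nearest with 0.27 ± 0.07 (adjusted p = 0.0992).

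The neighbours on the chromosome gave a further comparison, chosen after the data were seen. By the gene bounds of GENCODE, Tnfrsf25 lies 212 bases from Espn on the opposite strand and 534 bases from Plekhg5 on the same strand. Over mice it went with Espn (r = 0.75) and Plekhg5 (r = 0.57), while their feed differences were -0.16 ± 0.06 (adjusted p = 0.463) and 0.04 ± 0.08 (adjusted p = 0.962). Noxred1 lies 136 bases from Vipas39 (r = -0.47, feed difference 0.07 ± 0.03, adjusted p = 0.512). Lcmt2 overlaps Adal (r = 0.28) and Lyl1 overlaps Nfix (r = 0.18), both on the opposite strand. Whether reads were counted by strand is not given in the sources used here, so reads of overlapping genes cannot be told apart.

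Feed calls were also counted among genes in pathways of the 10, in methionine and sulfur metabolism and among ATF4 targets. Of 142 measured genes in 9 pathway lists, without the 10 themselves, 1 rose and 0 fell on restricted feed, against 0.141% of all tested rows called. It was Slc6a6, the taurine transporter, from the list of methionine and sulfur metabolism (22 measured genes), at 39.3 ± 5.89 FPKM in 42 restricted mice and 34.1 ± 8.15 in 43 standard-feed mice (SD). It rose by 0.22 ± 0.05 (log2, limma, adjusted p = 0.0399), and 37 of 42 restricted mice were above the standard-feed median. The call was lost without any 1 of 43 of the 85 mice, without the filter on low values, with tissue covariates and with the replicate number as a block. The list as a whole had a median difference of 0.002, beside -0.004 over all tested rows.

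The other pathway lists had no call by limma. Of all 142 genes 8 had an unadjusted p under 0.05, beside 1604 of all 21300 tested rows. In NAD synthesis and use, the pathway of Nadsyn1, 0 of 16 measured genes were called and the smallest p belonged to Naprt (-0.05 ± 0.04, adjusted p = 0.86). In death receptor signalling, that of Tnfrsf25, 0 of 10 were called (Birc3, 0.10 ± 0.06, adjusted p = 0.775). In wybutosine and carboxyl methylation, that of Lcmt2, 0 of 11 were called (Ppme1, 0.08 ± 0.05, adjusted p = 0.742). For poly(A) polymerases and deadenylases the count was 0 of 16 (Zcchc11, 0.12 ± 0.04, adjusted p = 0.206), for the inner nuclear envelope 0 of 19 (Lbr, 0.44 ± 0.16, adjusted p = 0.34), and for Rab7 and TBC domain proteins 0 of 22 (Tbc1d4, 0.14 ± 0.04, adjusted p = 0.227). For Lyl1 and GATA partners it was 0 of 11 (Erg, 0.15 ± 0.07, adjusted p = 0.57), and for ATF4 targets 0 of 19 (Chac1, 0.11 ± 0.05, adjusted p = 0.561). Medians of these lists ran from -0.020 to 0.016.

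Total FPKM ran from 939248 to 1066927 per library. Prnp, whose promoter drives the transgene, was at 916.8 to 1507.8 FPKM in AD and 241.2 to 435 in control mice, and Xist at 23.2 to 198.3 in females and 0.109 to 0.864 in males, so no library went against its label of sex or genotype. All 12 hippocampal neuron genes were measured. Of the 11 lists of cell types and neighbouring tissues, that of lymphocytes had the 1 call for feed. The other lists, of 3 to 12 measured genes, had 0 called by limma and 0 to 3 genes each at an unadjusted p under 0.05. Over the whole table, 1604 of 21300 tested rows had such a p. The median feed differences of the 11 lists lay farther from 0 than those of the pathway lists, from -0.088 for hippocampal neurons and -0.083 for choroid plexus to 0.129 for lymphocytes (4 genes) and 0.156 for erythroid cells (3 genes), with microglia (0.016) and astrocytes (-0.006) as exceptions. The part of these cells and tissues in the feed differences of the 10 genes was not tested. Tissue next to the hippocampus varied between libraries: the summed level of choroid plexus genes ran from 6.10 to 1293.1 FPKM in restricted and from 5.14 to 1773.3 in standard-feed mice.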

How the data were processed

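Hippocampal RNA of 85 mice was sequenced. The authors deposited 1 table of FPKM values with a column per mouse. Per the submitters' processing notes, Trimmomatic 0.38, HISAT2 and StringTie 1.3.4d were used on GRCm38.p6; their order, options and strand setting, and the version of HISAT2, were not given in these sources. FPKM holds no counts, so depth is unknown, and the spread between mice sets the precision. 0 columns were left out.

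Rows of equal symbol were summed, rows reaching 1 FPKM in 10 or more libraries kept (21300), libraries divided by median-of-ratios factors (0.876 to 1.10), and log2(scaled FPKM + 1) fitted with limma 3.58.1 (R 4.3.3, statmod 1.5.0; 8 group means, trend, robust prior, 77 residual degrees of freedom). P-values are two-sided, adjusted by Benjamini-Hochberg over all tested rows, with 0.05 as threshold. The fit was tested on simulated data. Differences are restricted minus standard, AD minus control and female minus male. Interactions of the 10 genes with feed were given no p, since only 7 of them passed the averaged feed comparison. Correlations used 100000 permutations within groups, two-sided.

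The genes, lists and comparisons were chosen with earlier results of these data known. Named besides the 10 are the 2 single genes most correlated with each, and the called genes, or the smallest p, of each pathway list; chromosomal neighbours within 2000 bases were chosen after seeing the data. Promoters and gene positions are from RefSeq on GRCm38.p6; Tmem194b and Fam46a were matched as Nemp2 and Tent5a. Same-numbered mice did not deviate together (mean r = -0.00521 over 281 pairs), so no block was used.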

Additional observations from a re-analysis of the deposited data

Results flagged for a closer look

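Of 30 combinations of a gene and a group of 10 mice, 2 held a mouse far from the others of its group by Dixon's criterion (0.466 of the range for 10 mice), where chance gives about 1 in 20. Gzmm was at 3.34 FPKM in FWT replicate 5, and the next mouse of the group was at 2.52. Fam46a was at 3.16 FPKM in FWTMR replicate 5, and the next mouse was at 2.14. With single mice left out, the feed difference in control mice ran from 0.154 to 0.194 for Gzmm and from -0.227 to -0.180 for Fam46a (log2). Groups of 11 mice, among them MADMR with a Tnfrsf25 value of 52.9 FPKM, were not examined in this way.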

How the results depend on the processing

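No genotype difference of the 10 genes changed direction under the alternatives. Of the sex differences that were not called, Zglp1 (-0.014 as reported) was 0.015 with FPKM as deposited and 0.013 with an equal total, and Gzmm (-0.012) was 0.026 and 0.023. Tnfrsf25 (0.008) ran from -0.024 to 0.047 without single mice. The number of genes called for feed, 30 as reported, was 14 with a filter at 5 FPKM, 209 with library weights, 12 with the replicate block, 10 with tissue covariates and 11 without the control females (added after seeing the data), and ran from 21 to 66 when single mice were left out (66 without MWT replicate 1, 48 without MAD replicate 8). With an equal total per library, feed calls were 34 higher and 9 lower, against 19 and 11. Genotype calls, 370 as reported, were 204 with the filter at 5 FPKM, 1157 with library weights and 225 with tissue covariates, and ran from 317 to 492. Sex calls, 10747 (5840 higher, 4907 lower), were 6533 with the filter at 5 FPKM, ran from 10290 to 11157, and were 7177 higher and 3260 lower with FPKM as deposited and 7084 and 3476 with an equal total. Of the 10 genes, 2 were called for genotype with FPKM as deposited, an equal total and library weights, and 1 or 2 without single mice (Tbc1d2 passed in 22 of 85 cases, Noxred1 in 85). For sex 3 were called with FPKM as deposited, an equal total and library weights (Nadsyn1, Lcmt2, Lyl1), 0 with the filter at 5 FPKM, which only 3 of the 10 genes pass, and 1 or 2 without single mice. The same sign of feed difference in AD and control mice, in 9 genes, was counted in 3 with that filter and in 8 to 10 without single mice. Slc6a6, the 1 pathway gene called, was lost (0 called) with no filter, the replicate block and tissue covariates, 2 genes were called with library weights, and 0 to 1 without single mice. For feed by genotype 1 gene was called over the table, 0 with FPKM as deposited or an equal total, 3 with library weights and 2 with tissue covariates, and 1 in each case without a single mouse; for feed by sex 0 were called by limma (1875 genes at an unadjusted p under 0.05), 367 with library weights, 1 with tissue covariates and 0 without single mice. Correlated pairs, 16 (9 positive, 7 negative), were 14 to 18, with 10 positive and 4 negative for an equal total. The feed difference of Zglp1 in control mice was -0.527 with a pseudocount of 0.1. The cause of these shifts was not tested. With the replicate block genotype calls were 303, sex calls 10264 and correlated pairs 18, and Noxred1 for genotype and Lyl1 for sex remained the calls among the 10 genes; same-numbered mice were most alike in 8 of 85 cases. FPKM without counts limits what can be said of genes near 1 FPKM.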
